A study of Rattus norvegicus with 48 samples.

Results

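The clock repressors Per1, Per2, Per3, Cry1, Cry2, Nr1d1 (Rev-erb alpha) and Nr1d2 (Rev-erb beta) were followed in liver and brain cortex of rats given the explosive RDX. They are 7 of the 14217 genes that the array annotation names singly, and 12 of the 31042 probe sets tested carry one of these names. Where a gene had several probe sets, the one with the highest mean in the tissue represented it, which was the same probe set in liver and in cortex for each of the 7 genes. RDX is a nitramine explosive, and male Sprague-Dawley rats of 300 to 400 g, held under 12 h of light and 12 h of dark with free access to food and water, swallowed it once in a gel capsule at 3 or 18 mg/kg. Both doses had been chosen to stay below those that cause seizures. RNA from cortex and from liver was taken at 0, 4, 24 and 48 h, with 3 Affymetrix rat expression arrays in each of the 16 combinations of tissue, dose and time, so 48 arrays in all. All rats belonged to one of the dosed arms, and each later group was therefore set against the 0 h group of its own arm.

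The mammalian clock is a transcriptional loop. CLOCK and BMAL1, or NPAS2 in place of CLOCK, bind E-box sequences and switch on the Per and Cry genes, and PER and CRY proteins return to the nucleus and repress CLOCK and BMAL1. In a second loop, REV-ERB proteins, also made from E-box genes, occupy ROR response elements and repress Bmal1, Npas2 and, in part, Cry1, against the ROR activators. The liver clock is known for a strong daily rhythm that follows feeding as well as signals from the brain, and the 7 transcripts peak at different times of day. The labels give neither the clock time of dosing nor that of collection, so time after RDX and time of day cannot be told apart here.

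The values below are deposited log2 values, so a difference of 1 is a 2-fold difference. The values of different probe sets cannot be compared as amounts, and every comparison is within a probe set. "Called" means an adjusted p under 0.05 in limma, with Benjamini-Hochberg adjustment over all 31042 probe sets, and changes are given with their standard error (SE). The labels do not say that the 3 arrays of a group came from 3 rats, and the p-values measure only the spread between arrays. In RNA from whole tissue, fewer cells of a type and less RNA per cell cannot be told apart.

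Snap25, a synaptic gene, averaged 13.25 in cortex and 5.33 in liver, in the direction of the labels. Alb, serum albumin, averaged 14.31 in liver and 9.66 in cortex, where its highest array read 14.02. Genes used as markers of striatum also read high in cortex, on average 12.48 for Penk, 9.18 for Drd1, 9.14 for Tac1, 8.40 for Adora2a and 7.76 for Drd2. The part of striatum in the cortex samples was not tested. In liver 2 arrays had compressed values: the SD over all probe sets was 1.499 in 3 mg/kg 0 h replicate 2 and 1.39 in 18 mg/kg 4 h replicate 1, against up to 2.09 in the others. In cortex, 7 of 24 arrays had a mean above 7 for 7 hepatocyte transcripts, and 10 had a gap above 3 between the 3′ and 5′ probe sets of actin, which grows as RNA degrades. They were unevenly spread: 8 of the 10 high gaps and 5 of the 7 high hepatocyte means lay in the 18 mg/kg arm. Some results that move with these arrays are given with and without them, and others only with them. In liver 18 of 24 arrays had an actin gap above 3, with a median of 3.27 against 2.61 in cortex. Liver group means of the gap were 3.85 at 0 h and 3.58 at 4 h in the 3 mg/kg arm. In the 18 mg/kg arm they were 3.34 and 2.24, with 0.62 in the compressed array. The gap was not entered in the liver models.

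Upstream sequence was matched in RefSeq (GRCr8) for 6 of the 7 genes, all but Cry1, as windows from 250 bases before to 50 after an annotated start. The 250 bases before the outermost start of Nr1d1, Nr1d2 and Cry2 are shown because both Nr1d genes changed in liver and Cry2 was not called there. Capitals mark a clock motif on either strand.
Nr1d1, chr10:84231813-84232062, minus strand: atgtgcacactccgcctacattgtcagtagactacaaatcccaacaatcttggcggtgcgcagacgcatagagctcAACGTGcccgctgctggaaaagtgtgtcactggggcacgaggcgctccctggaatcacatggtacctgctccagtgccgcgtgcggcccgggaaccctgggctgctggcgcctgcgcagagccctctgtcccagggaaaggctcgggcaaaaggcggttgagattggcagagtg
Nr1d2, chr15:9954784-9955033, plus strand: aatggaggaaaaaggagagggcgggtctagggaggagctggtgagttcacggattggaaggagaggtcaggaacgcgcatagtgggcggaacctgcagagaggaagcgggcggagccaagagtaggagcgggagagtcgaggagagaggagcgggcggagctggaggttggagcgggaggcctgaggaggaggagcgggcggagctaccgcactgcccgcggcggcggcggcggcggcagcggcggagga
Cry2, chr3:98860438-98860687, minus strand: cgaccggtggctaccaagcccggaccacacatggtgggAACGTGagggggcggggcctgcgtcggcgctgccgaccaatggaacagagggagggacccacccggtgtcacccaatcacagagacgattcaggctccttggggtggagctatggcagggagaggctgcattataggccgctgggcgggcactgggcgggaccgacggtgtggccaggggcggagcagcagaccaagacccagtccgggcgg
The starts of Per2 and the second start of Nr1d1 lie inside their genes as annotated (by 76 and 2358 bases), so 30 bases around each motif are shown.
Per2 E-prime box, chr9:99497038-99497067, minus strand: aacgcgcgcggtCACGTTttccactatgtg
Per2 D-box, chr9:99497167-99497196, minus strand: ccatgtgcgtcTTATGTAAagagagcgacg
Nr1d1 second start E-box, chr10:84229628-84229657, minus strand: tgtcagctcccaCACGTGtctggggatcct

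The search covered both strands for the E-box (CACGTG), the E-prime box (CACGTT), the D-box (TTANGTAA), the ROR element in 2 forms (TAGGTCA and TGGGTCA), the cAMP response element (TGACGTCA) and the palindromic glucocorticoid response element. Among 33469 RefSeq windows of 300 bases, these were found in 6.42%, 4.83%, 2.24%, 2.63%, 4.09%, 1.83% and 0.0149%. Per2 held an E-prime box 62 bases and a D-box 192 bases before its start. Nr1d1 held an E-prime box 174 bases before its outermost start and an E-box 191 bases before the second, and Cry2 an E-prime box 212 bases before its start, the Nr1d1 and Cry2 E-prime boxes on the opposite strand. The matches found did not overlap each other. None of these motifs was found in the windows of Per1, Per3 and Nr1d2, and the windows of Per1 and Per3 lie 5374 and 443 bases inside the annotated genes. A match is only a match of letters, and binding was not measured.

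In liver, 4 h after RDX, both Rev-erb transcripts and Per3 rose and Cry1 fell. Nr1d1, the nuclear receptor that represses Bmal1, of the 3 mg/kg arm read 5.48, 5.62 and 6.41 at 0 h, then 9.14, 9.19 and 8.81 at 4 h. The 18 mg/kg arm read 5.16, 5.84 and 5.30 at 0 h and 7.60, 9.19 and 8.97 at 4 h. Every 4 h array was above every 0 h array in both arms, and the lowest of the 6, 7.60, came from the compressed array of the 18 mg/kg arm. The rise was 3.21 ± 0.50 (SE) after 3 mg/kg (limma adjusted p = 0.0108) and 3.15 ± 0.50 after 18 mg/kg (adjusted p = 0.016), with 3 arrays in each group. With each array centred on its median, the second call was lost at a like size (3.00, adjusted p = 0.0728).

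Nr1d2, the second Rev-erb receptor, read 6.197, 6.84 and 8.18 at 0 h and 9.97, 9.94 and 10.04 at 4 h after 3 mg/kg. With 18 mg/kg it read 7.81, 7.34 and 7.67 at 0 h and 8.42, 10.24 and 10.09 at 4 h. The groups did not overlap in either arm, but the 0 h arrays of the 3 mg/kg arm were spread over about 2 log2 units. Nr1d2 rose by 2.91 ± 0.45 after 3 mg/kg (limma adjusted p = 0.0108). After 18 mg/kg the difference was 1.98 ± 0.45 with adjusted p = 0.24, and it was 2.56 with adjusted p = 0.0188 without both compressed arrays. The second brightest of its 3 probe sets, 1370541_at, rose by 1.17 ± 0.22 over both arms (adjusted p = 0.0385). The dimmest, 1370540_at, averaged 4.57 in liver, below the 6.17 median of all probe sets, and differed by -0.18 ± 0.18.

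Per3, the period gene that is dispensable for the core loop in mice, read 5.96, 6.58 and 6.11 at 0 h and 7.90, 8.19 and 8.23 at 4 h after 3 mg/kg. The higher dose gave 5.88, 5.61 and 5.84 at 0 h and 7.60, 8.30 and 6.97 at 4 h. All 6 arrays at 4 h were above the other 18 liver arrays, which reached 6.95. The rise was 1.89 ± 0.25 after 3 mg/kg (limma adjusted p = 0.0061) and 1.84 ± 0.25 after 18 mg/kg (adjusted p = 0.00712). A second Per3 probe set, 1388239_at, averaged 5.55 in liver, also below the median of all probe sets, and did not follow: it differed by -0.24 (adjusted p = 0.61) after 3 mg/kg and by -0.011 (adjusted p = 0.99) over both arms. The rise in Per3 therefore rests on 1 probe set.

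Cry1, the stronger of both cryptochrome repressors in the core loop, moved the other way. It read 9.32, 9.16 and 9.03 at 0 h and 7.43, 7.57 and 7.19 at 4 h after 3 mg/kg. Values with 18 mg/kg were 9.41, 9.74 and 9.10 at 0 h and 7.45, 7.01 and 7.76 at 4 h. All 6 arrays at 4 h were below the other 18 liver arrays, of which the lowest was 8.49. Cry1 fell by 1.77 on the log2 scale (SE 0.28, limma adjusted p = 0.0144) after 3 mg/kg and by 2.01 (SE 0.28, adjusted p = 0.00712) after 18 mg/kg. The lower dose's call for Cry1 was lost without both compressed arrays, at the same size of change (-1.78, adjusted p = 0.0564).

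The other 3 genes were not called. Per2, a core repressor that also responds to glucocorticoids and temperature, read 8.88, 7.71 and 7.82 at 0 h and 6.63, 7.68 and 8.24 at 4 h after 3 mg/kg, and the groups overlapped. With the higher dose it read 8.75, 9.05 and 8.67 at 0 h and 7.26, 8.11 and 6.37 at 4 h, without overlap. The differences were -0.62 ± 0.60 (limma adjusted p = 0.59) and -1.58 ± 0.60 (adjusted p = 0.44). Its second probe set, 1378560_at, differed by -0.71 ± 0.17 over both arms (adjusted p = 0.126), in the same direction as the -1.10 ± 0.42 of the first (adjusted p = 0.43).

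Per1, which is induced quickly by light, stress hormones and cAMP in many cells, read 6.92, 7.01 and 6.66 at 0 h and 6.61, 7.24 and 7.58 at 4 h after 3 mg/kg. At the higher dose it read 6.85, 6.96 and 7.04 at 0 h and 7.60, 6.75 and 6.96 at 4 h, and the groups overlapped in both arms. Over both arms the difference was 0.22 ± 0.17, with a 95% interval from -0.14 to 0.57 (limma adjusted p = 0.79). Cry2, the second cryptochrome, read 8.02, 7.45 and 8.29 at 0 h and 7.91, 8.01 and 8.38 at 4 h after 3 mg/kg. Its values with 18 mg/kg were 8.30, 8.52 and 7.61 at 0 h and 6.98, 7.96 and 7.64 at 4 h. Its groups overlapped too, and over both arms the difference was -0.22 ± 0.21, with an interval from -0.66 to 0.23.

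**Figure D1:**
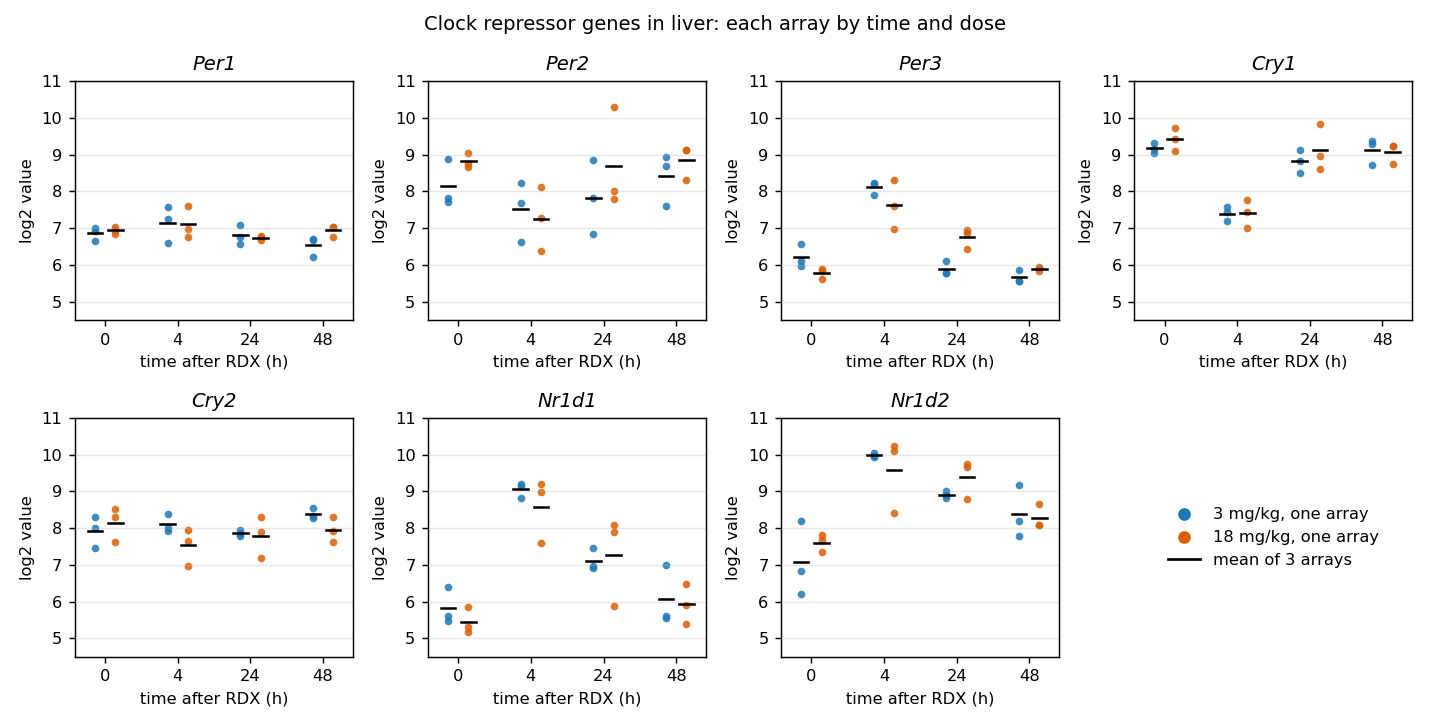
Deposited log2 values (vertical axis) of the 7 clock repressors in liver by time after RDX in hours (horizontal axis); each point is 1 array, blue for 3 mg/kg and orange for 18 mg/kg, and each black line the mean of 3 arrays. At 4 h Nr1d1, Nr1d2 and Per3 stand high and Cry1 low in both arms, while the 0 h and 4 h points of Per1 and Cry2 overlap.

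Against the background of the liver arrays these calls were few among many tests. After 3 mg/kg, limma called 7 of 31042 probe sets (0.0226%) at 4 h, and 4 of the 7 clock repressors were among them: 3 of the 5 probe sets that were higher (0.0161% of those tested) and 1 of the 2 that were lower (0.00644%). The other 3 were Retreg1, Ppard and Cxcl1. After 18 mg/kg it called 8 probe sets (0.0258%), with Per3, Cry1 and Nr1d1 at the head by p, 2 of the 5 higher and 1 of the 3 lower ones (0.00966%). The groups did not overlap for 4 clock repressors after 3 mg/kg, where 20.6% of all probe sets did not, and for 5 after 18 mg/kg, where 11.4% did not. The 3 genes outside the clock lists were chosen for naming after their values were seen, and the clock repressors with earlier results of these data known.

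The calls within a single arm depended on single arrays. After 3 mg/kg the count of 4 was 0 without 0 h replicate 1 or 4 h replicate 2, and 1, Per3, without 0 h replicate 2, 4 h replicate 1 or 4 h replicate 3. After 18 mg/kg the count of 3 was 0 without 0 h replicate 1 or 2, 2 without 0 h replicate 3 or 4 h replicate 3, and 4 without 4 h replicate 1. The changes after 3 mg/kg themselves stayed between 1.76 and 2.07 for Per3 and between 3.04 and 3.50 for Nr1d1 when each of the 6 arrays was left out.

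With the 2 arms averaged in one test (6 arrays at 0 h and 6 at 4 h), limma called 29 probe sets (0.0934%), 20 higher (0.0644%) and 9 lower (0.029%). Per3 ranked first at 1.87 ± 0.18 (3.65-fold, adjusted p = 1.95e-05), Cry1 next at -1.89 ± 0.20 (3.71-fold lower, adjusted p = 6.2e-05) and then Nr1d1 at 3.18 ± 0.35 (9.06-fold, adjusted p = 7.5e-05). Nr1d2 had rank 5 at 2.44 ± 0.32 (5.44-fold, adjusted p = 0.000759). All 4 calls held in each of the 12 tests that left out 1 of these arrays, and without both compressed arrays. None of 7 hepatocyte markers was called, and their median difference was -0.36. Of the 6 probe sets that were higher by at least 1.5 log2 units in both arms, 3 were clock repressors, and the only one lower by that much in both arms was Cry1. The clock repressors were chosen with earlier results of these data known, so these ranks and counts are descriptive.

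**Figure D2:**
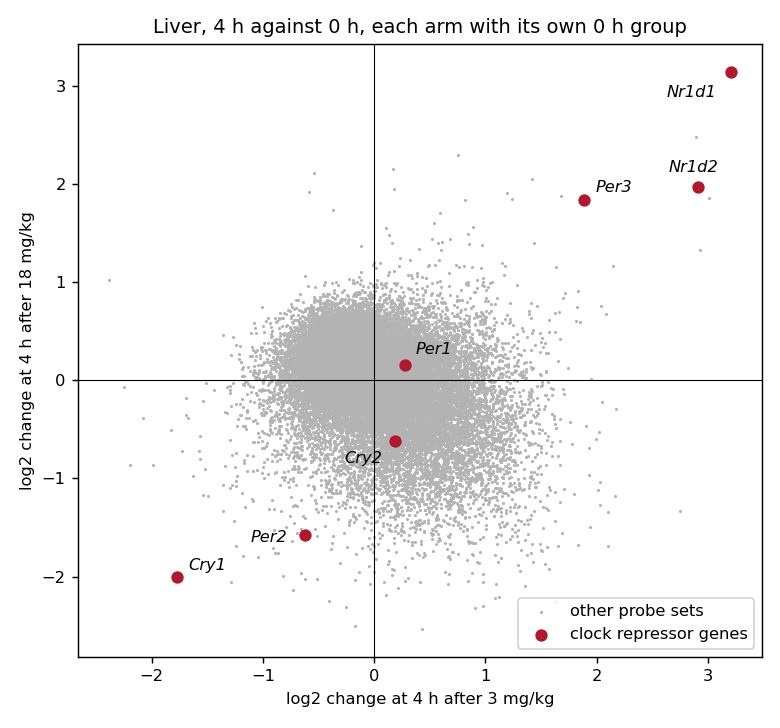
Log2 change in liver at 4 h after 3 mg/kg (horizontal axis) against that after 18 mg/kg (vertical axis), each arm against its own 0 h group; grey points are the other probe sets and red points the 7 clock repressors. Nr1d1, Nr1d2 and Per3 lie at the upper right edge and Cry1 at the lower left, while Per1 and Cry2 lie inside the cloud.

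At 24 h the Rev-erb genes were intermediate in liver and no probe set was called in either arm, nor with both averaged, where 3881 of 31042 had an unadjusted p under 0.05. Nr1d1 read 6.91, 7.45 and 6.98 after 3 mg/kg and 8.07, 5.88 and 7.88 after 18 mg/kg. Nr1d2 read 8.82, 8.91 and 9.00 after 3 mg/kg and 9.75, 8.78 and 9.66 after 18 mg/kg, above each arm's 0 h arrays in both. The arrays did not overlap those at 0 h for 2 of the 7 genes after 3 mg/kg (18.9% of all probe sets) and for 4 after 18 mg/kg (9.74%). Averaged over the arms, Nr1d2 differed from 0 h by 1.81 ± 0.32 (limma adjusted p = 0.169), the smallest p of all probe sets in that test, and Nr1d1 by 1.56 ± 0.35 (adjusted p = 0.24), which ranked 19. After 3 mg/kg Nr1d2 was called without 0 h replicate 3, the highest 0 h array, at 2.39 with adjusted p = 0.00304. Without that array 2 of the 7 genes were called over both arms at 24 h and 1 at 48 h. The share of all probe sets called without it is not given, so these counts lack a background.

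One array of the 18 mg/kg 24 h group, replicate 2, stood apart from the other two in several clock genes. It had the lowest Nr1d1 of its group (5.88) and the highest Cry1 (9.84 against 8.60 and 8.96), Per2 (10.29 against 7.80 and 8.02) and Bmal1 (8.27 against 6.84 and 7.30). Its Per3 of 6.43 was below the 6.95 and 6.87 of the others. Without it, the difference from 0 h was 2.54 for Nr1d1 (limma adjusted p = 0.139) in place of 1.84 ± 0.50, and 1.13 for Per3 (adjusted p = 0.7) in place of 0.97 ± 0.25. Neither version was called.

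At 48 h none of the clock repressors was called in liver. Nr1d1 read 7.005, 5.56 and 5.61 after 3 mg/kg and 6.49, 5.90 and 5.39 after 18 mg/kg, and both ranges overlapped those of 0 h. Cry1 read 8.71, 9.38 and 9.28 after 3 mg/kg and 8.75, 9.24 and 9.24 after 18 mg/kg. Nr1d2 kept the largest difference, 1.32 ± 0.45 after 3 mg/kg (limma adjusted p = 0.0629) and 0.67 ± 0.45 after 18 mg/kg. It was called after 3 mg/kg without 0 h replicate 3 (1.87, adjusted p = 0.00625). Groups did not overlap for Per3 after 3 mg/kg, lower at 48 h (5.57, 5.87 and 5.55), where 36.3% of all probe sets did not, and for Nr1d2 after 18 mg/kg, where 9.54% did not. The share of all probe sets called was 9.34% after 3 mg/kg, 0.0966% after 18 mg/kg and 0.0354% with the arms averaged.

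A test over all 3 later times in liver called 46 probe sets (0.148%). It set each later group against the 0 h group of its own arm, without averaging the arms. Per3 ranked first (F test in limma, adjusted p = 4.34e-05), followed among the clock repressors by Cry1 (0.00131), Nr1d1 (0.00169) and Nr1d2 (0.0144). Per2, Per1 and Cry2 had adjusted p of 0.45, 0.57 and 0.59. The count of 4 was kept in all 24 tests that left out 1 liver array.

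The 8 liver groups were also put in order by mean. Both 4 h groups held the highest means of Per3 (8.11 and 7.62), Nr1d1 (9.05 and 8.58) and Nr1d2 (9.98 and 9.58) and the lowest of Cry1 (7.40 and 7.40). For Cry1 the only step between neighbours larger than the spread within groups (SD 0.357) was that of 1.41 between the 4 h groups and the next group, 3 mg/kg 24 h. For Nr1d1 (SD 0.68) such steps came after the 4 h groups (1.31) and after the 24 h groups (1.05), so that 4 h, 24 h and the remaining times formed 3 levels. For Nr1d2 (SD 0.613) the only such step, 0.67, separated both 0 h groups from all later ones. Per3 (SD 0.305) had 4 such steps: 0.48 between the 3 and the 18 mg/kg group at 4 h, 0.87 to the 18 mg/kg 24 h group, 0.53 to the 3 mg/kg 0 h group and 0.32 to the next. No step exceeded the spread within groups for Per1, Per2 or Cry2. Group means spanned 3.61 for Nr1d1, 2.91 for Nr1d2, 2.44 for Per3, 2.02 for Cry1, 1.60 for Per2, 0.857 for Cry2 and 0.602 for Per1, where the median over all probe sets was 0.634. The within-group SD of Per2 in liver, 0.83, was above that of the other 6 genes, and the median over all probe sets was 0.332.

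Dose differences in liver were not called for any of the 7 genes. At 4 h, 18 against 3 mg/kg differed by -0.47 for Nr1d1 (95% interval -1.49 to 0.56), by -0.40 for Nr1d2 (-1.34 to 0.53), by 0.0076 for Cry1 (-0.58 to 0.60) and by -0.48 for Per3 (-1.01 to 0.04). These arrays are compatible with a dose difference of any size inside these intervals, and with none. The compressed 18 mg/kg array read lowest of its group for Nr1d1 (7.60, beside 9.19 and 8.97) and Nr1d2 (8.42, beside 10.24 and 10.09). The 3 mg/kg arrays read 9.14, 9.19 and 8.81 for Nr1d1 and 9.97, 9.94 and 10.04 for Nr1d2. For Per3 and Cry1 the compressed array lay between the others of its group. The dose differences without it are not given. At 0 h the arms differed by -0.40 for Nr1d1 and 0.53 for Nr1d2, in opposite directions. Per3 at 24 h had the smallest unadjusted p of these dose differences (0.0026), with 6.95, 6.43 and 6.87 after 18 mg/kg against 5.78, 5.77 and 6.11 after 3 mg/kg. The groups did not overlap, and the difference was 0.86 ± 0.25 (limma adjusted p = 0.76), in a test that called 0.087% of probe sets. The share of all probe sets without overlap between these groups is not given. The test of whether the arms' time courses differed called 0.00966% of probe sets and none of the 7 genes (adjusted p from 0.44 to 0.88).

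Across the 24 liver arrays the called genes varied together, a description of arrays that share groups and carries no p. Nr1d1 and Nr1d2 had Pearson r = 0.884 (Spearman rho 0.90), and Nr1d1 and Cry1 r = -0.887 (rho -0.865). Much of such a correlation can come from the 4 h arrays alone, so it was also computed over the 18 arrays of the other times. There Nr1d1 and Nr1d2 kept r = 0.814 (rho 0.837) and Nr1d1 and Cry1 r = -0.712 (rho -0.74). Per3 and Cry1 went from r = -0.862 over 24 arrays to -0.161 over the 18, and Per3 and Nr1d1 from 0.826 to 0.46. Cry1 and Nr1d2 went from r = -0.717 to -0.537. All of these pairs were thus weaker without the 4 h arrays, the least so for Nr1d1 with Nr1d2 and the most for Per3 with Cry1.

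**Figure D3:**
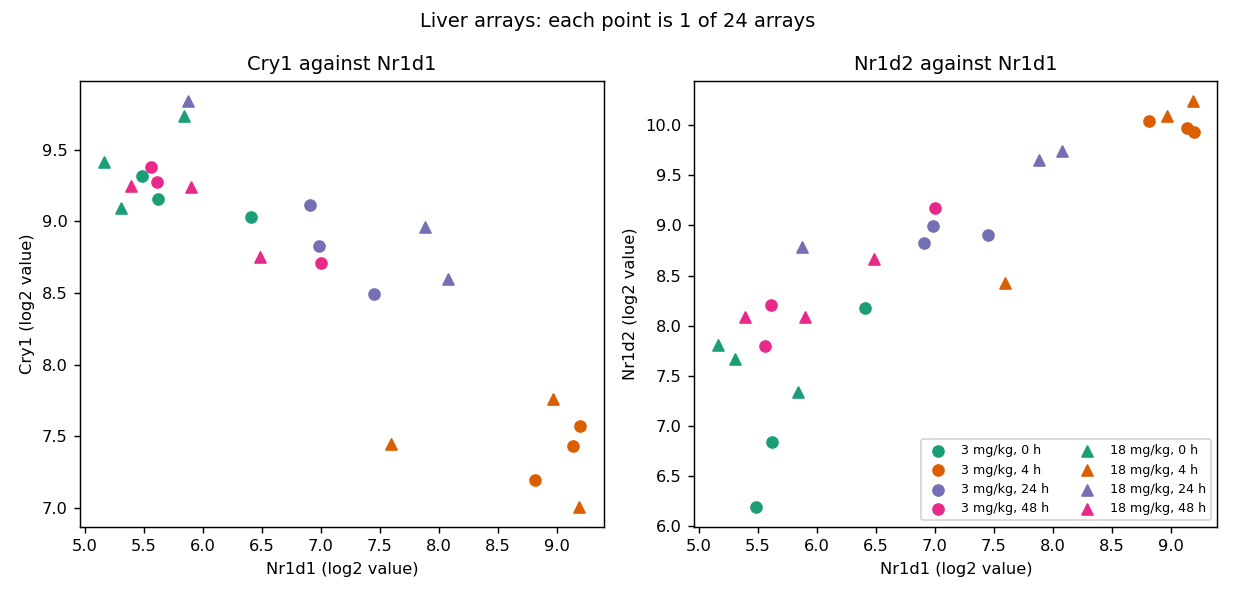
Liver log2 values of Cry1 (left, vertical axis) and Nr1d2 (right, vertical axis) against Nr1d1 (horizontal axis); each point is 1 of 24 arrays, coloured by time, with circles for 3 mg/kg and triangles for 18 mg/kg. Cry1 goes down and Nr1d2 goes up with Nr1d1 (r = -0.887 and 0.884), and the 4 h arrays lie at one end.

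Few genes of the other clock lists were called in liver at 4 h. Of 6 measured genes of the positive arm (Clock, Npas2, Bmal1, Bmal2, Rora, Rorb), 0 were called, with a median difference of -0.19 over both arms against 0.00085 over all probe sets. Bmal1, the main Rev-erb target, read 6.15, 5.09 and 6.63 at 0 h and 6.51, 6.33 and 5.74 at 4 h after 3 mg/kg, and the groups overlapped. The other arm read 7.49, 5.83 and 7.96 at 0 h and 5.57, 6.62 and 7.98 at 4 h. Its difference over both arms was -0.068 ± 0.41. Rora, a ROR activator, differed by -1.10 ± 0.34 (limma adjusted p = 0.27) and Npas2 by -0.55 ± 0.21 (adjusted p = 0.43). Of 8 Rev-erb target genes, 1 was called, Cry1 itself, and the median difference was -0.29.

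Among 6 measured output and feedback factors, 1 was called: Dbp, the D-box activator and a direct E-box gene. It read 5.69, 6.003 and 5.21 at 0 h and 6.85, 7.33 and 7.78 at 4 h after 3 mg/kg. The higher dose arm read 5.91, 5.71 and 5.65 at 0 h and 6.70, 8.85 and 7.37 at 4 h. The groups did not overlap in either arm, and Dbp rose by 1.78 ± 0.27 over both (3.44-fold, limma adjusted p = 0.00386). The median of that list was -0.10, and Tef and Hlf, the relatives of Dbp, differed by 0.67 ± 0.25 and -0.38 ± 0.18 without a call. None of 10 clock regulators such as casein kinase 1 genes, 12 glucocorticoid-induced genes, 9 activity-induced genes or 5 heme and Rev-erb partner genes was called. Fkbp5 and Klf9, induced by glucocorticoids, differed by 0.96 ± 0.24 (adjusted p = 0.143) and 1.05 ± 0.32 (adjusted p = 0.27), and the list's median was 0.023. Thra, which overlaps Nr1d1 on the opposite strand, differed by -0.16 ± 0.15.

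Bmal1 was called later. At 48 h after 3 mg/kg it read 7.95, 7.94 and 8.39, above all 0 h arrays of that arm, and rose by 2.14 ± 0.58 (limma adjusted p = 0.0321) in the comparison that called 9.34% of all probe sets. The lowest 0 h value, 5.09, came from a compressed array. With 18 mg/kg Bmal1 read 8.07, 7.68 and 6.98 at 48 h, overlapping its 0 h arrays. In that comparison 2 of 12 glucocorticoid-induced genes were also called after 3 mg/kg, Errfi1 at 1.72 ± 0.52 and Ddit4 at 1.20 ± 0.38 (adjusted p = 0.0427 and 0.0479). Of the 2 macrophage markers measured, Cd68 was called there too, at 1.79 ± 0.49 (adjusted p = 0.0328), and the part of other cells in the Bmal1 value was not tested.

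In cortex the same genes varied within narrower bounds, and none was called against 0 h at any time or dose. Group means spanned 0.30 to 0.62 for the 7 genes, against 0.349 for the median probe set. Nr1d1 read 7.42, 7.70 and 7.77 at 0 h and 8.30, 8.10 and 8.35 at 4 h after 3 mg/kg. Cortex arrays of the 18 mg/kg arm read 7.80, 7.60 and 7.88 at 0 h and 8.28, 7.95 and 8.43 at 4 h. All 6 arrays at 4 h were above all 6 at 0 h. The difference was 0.62 ± 0.13 after 3 mg/kg (limma adjusted p = 0.34), 0.46 ± 0.13 after 18 mg/kg (adjusted p = 0.45) and 0.54 ± 0.09 over both (adjusted p = 0.177), the second smallest p of all probe sets. The arrays did not overlap those at 0 h for 6 of the 7 genes after 3 mg/kg, all but Cry2, where 16.1% of all probe sets did not. After 18 mg/kg they did not for 3, Nr1d1, Nr1d2 and Per3, where 17% of all did not. No probe set was called in these 3 tests, while 3905, 3420 and 1277 had an unadjusted p under 0.05.

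Per3 in cortex read 7.30, 7.47 and 7.32 at 0 h and 7.61, 7.63 and 7.79 at 4 h after 3 mg/kg. Those of the higher dose read 7.05, 7.20 and 7.51 at 0 h and 7.84, 7.65 and 7.67 at 4 h. Here too the 6 arrays at 4 h were all above the 6 at 0 h, with a difference of 0.39 ± 0.13 over both arms (limma adjusted p = 0.98). Without the 7 arrays high in hepatocyte transcripts, Per3 and Nr1d1 were called at 4 h after 18 mg/kg, at 0.63 (adjusted p = 0.034) and 0.66 (adjusted p = 0.0387), with 2 arrays left in each group. The arrays left out include 0 h replicate 3, the highest 0 h array of that arm for Per3 (7.51) and Nr1d1 (7.88). Leaving them out was chosen after seeing the data. The share of all probe sets called without them is not given, so these calls lack a background. At 48 h after 18 mg/kg only 1 array was left, against 2 at 0 h; Per3 differed there by 0.64 (adjusted p = 0.0466), a value that assumes the lone array varies like the other groups. The part of liver transcripts in the values with all arrays was not tested beyond this. The dim second Per3 probe set differed by -0.040 ± 0.071 at 4 h over both arms.

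Nr1d2 in cortex was higher at 24 h without a call. It read 9.44, 9.72 and 10.00 at 0 h and 10.10, 10.22 and 10.41 at 24 h after 3 mg/kg. With 18 mg/kg it read 9.80, 9.79 and 9.52 at 0 h and 10.29, 10.04 and 10.20 at 24 h. The groups did not overlap in either arm, as for 19.6% of all probe sets after 3 mg/kg and 8.91% after 18 mg/kg. Over both arms the difference was 0.50 ± 0.10 (limma adjusted p = 0.0929), in a test that called 0.0193% of probe sets. After 3 mg/kg alone, where 0.0741% were called (0.058% higher), it was 0.52 ± 0.14 (adjusted p = 0.122), and it was called without 0 h replicate 3 (0.66, adjusted p = 0.0481). After 3 and 18 mg/kg the differences were 0.52 and 0.22 at 4 h, and 0.33 and 0.49 at 48 h. All later group means lay above both 0 h means. The only step above the within-group SD (0.169) was that of 0.20 between these sets. At 24 h over both arms, 1370541_at differed by 0.63 ± 0.16 (limma adjusted p = 0.216) and the dimmest probe set, 1370540_at, by 0.12 ± 0.19.

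Between doses, Cry1 was the only one of the 7 representing probe sets called in cortex. It read 8.22, 8.41 and 7.78 at 0 h and 7.44, 7.62 and 7.57 at 4 h after 3 mg/kg, a difference of -0.59 ± 0.14 (limma adjusted p = 0.34, and 0.0471 without 0 h replicate 3 at -0.77). The 18 mg/kg arrays read 8.12, 7.98 and 8.28 at 0 h and 8.17, 8.14 and 7.80 at 4 h, a difference of -0.09 ± 0.14. At 4 h it was thus higher after 18 than after 3 mg/kg by 0.49 ± 0.14 (limma adjusted p = 0.0493). The groups did not overlap, and the share of all probe sets without overlap between them is not given. The test called 3.7% of all probe sets, 1.32% higher and 2.38% lower. The call was lost without any one of the 6 arrays (adjusted p from 0.0729 to 0.185) and was 0.24 with adjusted p = 0.87 once the actin gap entered the model. The actin gap differed fully between these groups, at 3.33 to 4.03 after 18 mg/kg and 1.65 to 2.31 after 3 mg/kg. It moved with Cry1: the 10 cortex arrays with a gap above 3 averaged 8.16 ± 0.16 (SD) and the other 14 averaged 7.84 ± 0.21. Without the arrays high in hepatocyte transcripts the difference was 0.39 (adjusted p = 0.196). Dimmer probe sets of other members were called in the same test and in the other direction: Cry2 1369446_at at -0.95 ± 0.22 (adjusted p = 0.0441), and Nr1d2 1370541_at at -0.87 ± 0.23 and 1370540_at at -0.996 ± 0.27 (both adjusted p = 0.0477). The representing probe sets of Cry2 and Nr1d2 differed by -0.13 ± 0.16 and -0.32 ± 0.14 without a call, and with the actin gap the 3 dimmer ones were at -0.42, -0.42 and -0.34. Of 5 neuron markers 2 were called lower after 18 mg/kg in the same test, Slc17a7 at -2.01 ± 0.52 and Syt1 at -0.67 ± 0.16. With the actin gap in the model no probe set was called in this comparison. The test of whether the time courses differed between arms called 0.00322% of probe sets in cortex and none of the 7 genes.

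Cry2 in cortex at 48 h after 18 mg/kg read 8.80, 9.18 and 8.46, against 9.37, 9.35 and 9.34 at 0 h. The groups did not overlap, as for Nr1d2 and 14.8% of all probe sets, and the difference was -0.54 ± 0.16 (limma adjusted p = 0.124). Without 48 h replicate 2 the comparison called 3 of the 7 genes: Cry2 at -0.72 (adjusted p = 0.0108), Per3 at 0.60 (adjusted p = 0.036) and Nr1d2 at 0.54 (adjusted p = 0.0411). Against 3 mg/kg at 48 h, where 1.32% of probe sets were called, Cry2 differed by -0.53 ± 0.16 (adjusted p = 0.0711). Without 48 h replicate 2 that comparison called 1 of the 7 genes. The share of all probe sets called without that array is not given for either comparison, so both counts lack a background. Cry2 also moved with the actin gap, at 9.14 ± 0.33 (SD) in the 10 arrays above 3 and 9.33 ± 0.11 in the other 14. With the actin gap in the model the difference from 0 h was -0.38 (adjusted p = 0.42).

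Per1 and Per2 were not called in cortex. Over both arms at 4 h the differences were 0.13 ± 0.09 and 0.041 ± 0.13, with 95% intervals of -0.06 to 0.32 and -0.23 to 0.31. Per2 ranged from 8.67 to 9.60 over the 24 arrays and Per1 from 7.16 to 7.84. Among the other lists in cortex at 4 h over both arms, 0 of 6 output factors and 0 of 6 positive arm genes were called. Dbp differed by 0.82 ± 0.13 (limma adjusted p = 0.137). Between doses at 4 h, Bhlhe40 and Hdac3, a transcriptional repressor of the clock and the deacetylase that REV-ERB recruits through its corepressor, were lower after 18 mg/kg by -1.36 ± 0.29 and -1.24 ± 0.30 (adjusted p = 0.0438 and 0.0441), in the comparison where the actin gap differed fully between groups. With the gap in the model they were at -0.76 (adjusted p = 0.79) and -0.43 (adjusted p = 0.81).

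**Figure D4:**
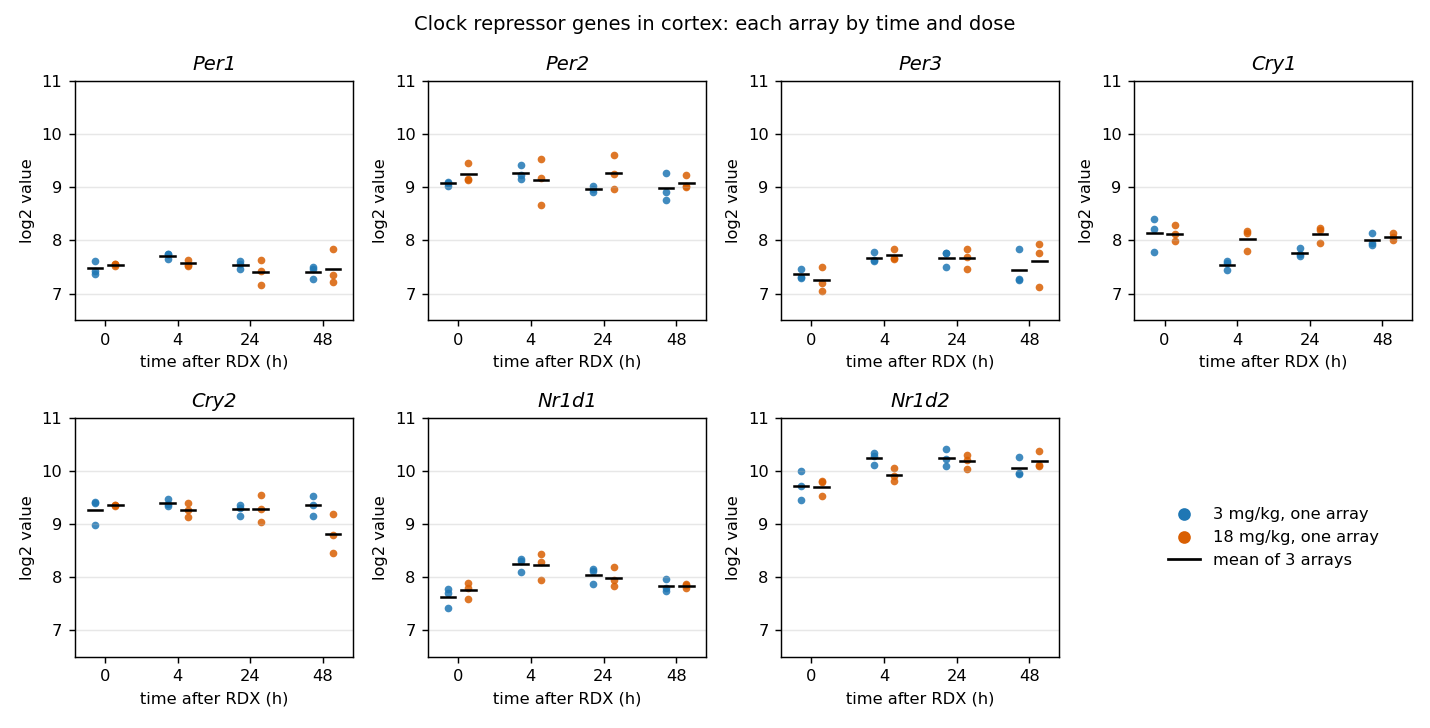
Deposited log2 values (vertical axis, not starting at 0) of the 7 clock repressors in cortex by time after RDX in hours (horizontal axis); each point is 1 array, blue for 3 mg/kg and orange for 18 mg/kg, and each black line the mean of 3 arrays. The points of Nr1d1 and Per3 at 4 h lie above those at 0 h in both arms, over a range of about 1 log2 unit.

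Both tissues shared the direction of the Nr1d1 and Per3 differences at 4 h, and the size differed. Whether the time course differed between tissues was tested over all 48 arrays with an F test in limma over the 3 later times. After 3 mg/kg it called 0.293% of probe sets, Per3 (adjusted p = 0.00056) and Nr1d1 (0.0411) among them, while Nr1d2 (0.0639) and Cry1 (0.0761) were not called. After 18 mg/kg it called 0.129%, with Cry1 (0.00534), Per3 (0.0358) and Nr1d1 (0.0434). At 4 h after 18 mg/kg, for example, Cry1 differed from 0 h by -2.01 ± 0.28 in liver and by -0.09 ± 0.14 in cortex. Per1, Per2 and Cry2 were not called at either dose. Leaving out 1 array gave counts of 1 to 4 in place of 2 after 3 mg/kg and of 1 to 3 in place of 3 after 18 mg/kg, and moved them by over 1.5 times in 19 and 12 of 24 cases, so these counts depend on most of the arrays. Per3 after 3 mg/kg and Cry1 after 18 mg/kg were called in all 24 cases. Nr1d1 was called in 7 and 5 of them and Per3 after 18 mg/kg in 10. Whether cortex and liver arrays of the same number came from the same rat is not known, and the test treats them as independent. It also takes 1 spread per probe set for both tissues. The within-group SD in liver and cortex was 0.68 and 0.16 for Nr1d1, 0.357 and 0.169 for Cry1, and 0.305 and 0.235 for Per3. These p-values therefore do not measure the wider liver spread alone.

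Over the 24 arrays of each tissue, 6 of the 7 representing probe sets averaged higher in cortex, a difference that was not tested. It was 1.38 for Nr1d2 (10.03 against 8.65), 1.29 for Cry2 (9.25 against 7.96), 1.06 for Per3, 1.03 for Nr1d1, 0.94 for Per2 and 0.63 for Per1. The second probe sets of Per2 and Per3 went the other way. Per2 1378560_at averaged 6.62 in cortex and 7.54 in liver, and Per3 1388239_at averaged 5.39 and 5.55. The direction for Per2 and Per3 thus depended on the probe set. Cry2 1369446_at (5.98 against 5.80) and Nr1d2 1370541_at (8.74 against 6.56) were also higher in cortex, and Nr1d2 1370540_at was nearly alike in both. Among the representing probe sets Cry1 was the exception, at 7.97 in cortex and 8.69 in liver. At 4 h the order was turned for Per3 after 3 mg/kg (8.11 in liver and 7.67 in cortex), for Nr1d1, whose liver groups averaged 9.05 and 8.58 and whose cortex groups averaged 8.25 and 8.22 (3 and 18 mg/kg), and for Cry1, at 7.40 and 7.40 in liver and 7.54 and 8.03 in cortex.

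**Figure D5:**
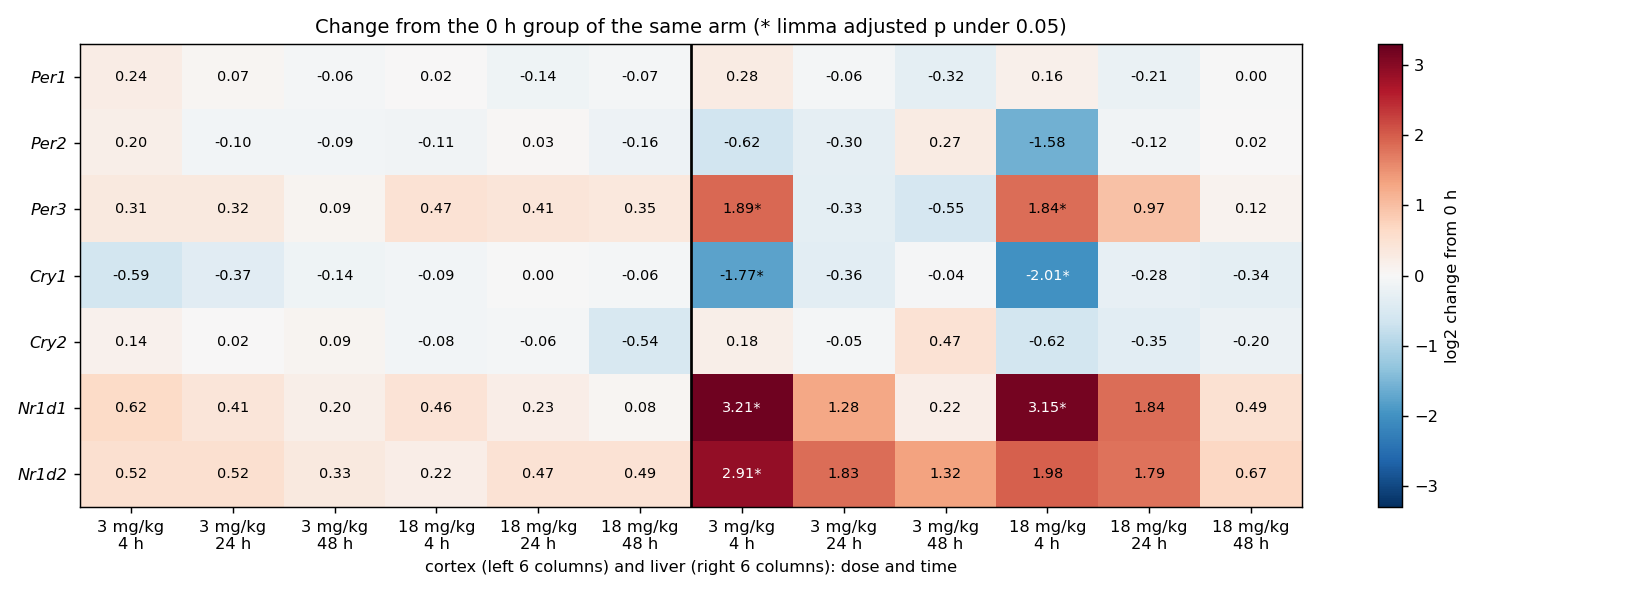
Log2 change from the 0 h group of the same arm (colour and printed value) for the 7 clock repressors (rows) in each later group (columns), cortex in the left 6 columns and liver in the right 6; an asterisk marks a limma adjusted p under 0.05. The 7 asterisks all stand in the liver columns at 4 h, 4 after 3 mg/kg and 3 after 18 mg/kg.

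The genes nearest to each repressor over 24 arrays were sought with the clock repressors themselves, LOC and RGD names passed over. Those found in liver were mostly outside the clock lists. Among the repressors, liver Nr1d1 was closer to Nr1d2 (r = 0.884) and Per3 (r = 0.826) than to the genes given for it below. Nr1d2 was likewise closer to Nr1d1 than to its own. Per3 went with Dbp (r = 0.864, rho 0.743) and Cux2 (r = 0.789), and Dbp was also one of the 2 genes nearest to Nr1d1 in cortex (r = 0.766, rho 0.731), beside Tinagl1 (r = 0.784). In liver, Nr1d1 went with Ctdspl (r = 0.769) and Epha2 (r = 0.757), Nr1d2 with Cybrd1 (r = 0.847) and Zfp457 (r = 0.825), and Cry1 with Gpam (r = 0.771) and Inhba (r = 0.761). Cry2, which was not called in liver, went with Icam2 (r = 0.875) and Acin1 (r = 0.873), Per2 with St3gal6 (r = 0.781) and Per1 with Chad (r = 0.793). In cortex the nearest genes were Mtrr for Cry1 (r = 0.894), Fastk for Cry2 (r = 0.921), Mtpap for Nr1d2 (r = 0.823), Psme1 for Per3 (r = 0.788), Rpe65 for Per2 (r = 0.77) and Arrdc4 for Per1 (r = 0.712). The highest of many such values is large by selection, and arrays of a tissue share groups, RNA quality and processing.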

How the data were processed

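The authors deposited log2 values of 31099 probe sets for 48 Affymetrix rat arrays. RMA and Partek are the tools listed in the submitters' processing notes, with no version or setting. The array means lay between 6.739 and 6.740, and means made alike shrink any change common to most transcripts. The distributions were not alike: the SD over all probe sets went from 1.389 in a liver array to 2.168 in a cortex array. The deposited log2 values were used without further scaling. After 57 control probe sets were left out, 31042 were tested with no filter on dim values. Array data hold no counts, so the number of arrays limits the precision.

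Groups came from the sample labels. Models with 8 group means were fitted per tissue over 24 arrays in limma 3.58.1 (R 4.3.3), and over all 48 arrays for the tissue test; all tests were two-sided. P-values were adjusted over all probe sets of a comparison. The model was tested on simulated data. The 7 members and the gene lists were chosen with earlier results of these data known. Named were the members, per tissue the 2 genes most correlated with each (members, LOC and RGD names passed over), and up to 4 called genes of a list; names outside this rule were chosen after their values were seen. Alternatives covered scaling, dim probe sets, 1 probe set per gene, a replicate block, the actin gap (in cortex only), pooled 0 h groups and left-out arrays. Leaving out cortex arrays high in hepatocyte transcripts and using the second probe set were chosen after seeing the data. Figures were drawn with matplotlib 3.10.9.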

Additional observations from a re-analysis of the deposited data

Results flagged for a closer look

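The effect of time differed between liver and cortex, by an F test of the difference over the 3 later times, for Per3 and Nr1d1 after both doses and for Cry1 after 18 mg/kg. After 3 mg/kg the limma adjusted p was 0.00056 for Per3 and 0.0411 for Nr1d1. After 18 mg/kg it was 0.0358 for Per3, 0.00534 for Cry1 and 0.0434 for Nr1d1. With each array centred on its median, only Per3 after 3 mg/kg (0.00076) and Cry1 after 18 mg/kg (0.0021) were called. Nr1d1 was then at 0.0521 and 0.153, and Per3 after 18 mg/kg at 0.107. With the replicate number as a term, Per3 (0.0644) and Nr1d1 (0.0792) after 18 mg/kg were not called. The dimmer second probe set of Per3 gave 0.99 and 0.96. The test treats cortex and liver arrays as independent, and whether they share rats is not known. It also takes 1 spread for both tissues, though the spread within groups was wider in liver for these genes. At 4 h after 3 mg/kg Per3 differed from 0 h by 1.89 ± 0.25 in liver and 0.31 ± 0.18 in cortex, and Nr1d1 by 3.21 ± 0.50 and 0.62 ± 0.13. No array was tested for standing apart from its group, because groups had 3 arrays.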

How the results depend on the processing

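Every alternative gave 4 called genes in liver at 4 h over both arms, save the second probe set with 3. Counts of called genes that moved by over 1.5 times are given here. For cortex 18 against 3 mg/kg at 4 h the count of 1 became 0 with 1 probe set per gene, with the actin gap as covariate, and without arrays high in hepatocyte transcripts, and 3 with the second probe set. Without the arrays high in hepatocyte transcripts the cortex counts became 2 at 4 h and 1 at 48 h after 18 mg/kg, the latter with 1 array left at 48 h, and 2 over any time. Brighter probe sets gave 1 for the cortex doses at 48 h, and the actin gap as covariate gave 1 for cortex at 24 h over both arms. The second probe set lowered liver at 4 h after 3 mg/kg from 4 to 2, liver over any time from 4 to 2, and the tissue test after 3 mg/kg from 2 to 1; it turned Per3 to -0.24 after 3 mg/kg and -0.011 over both arms in liver at 4 h. Median centring lowered the tissue tests to 1 at each dose.

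Leaving out 1 array at a time gave 0 to 4 calls in liver at 4 h after 3 mg/kg and 0 to 4 after 18 mg/kg, 4 in every case over both arms and over any time, 1 to 4 in the tissue test after 3 mg/kg and 1 to 3 after 18 mg/kg. It gave 0 to 1 in liver at 24 and 48 h after 3 mg/kg and at 48 h over both arms, and 0 to 2 at 24 h over both arms. In cortex it gave 0 to 1 at 4 and 24 h after 3 mg/kg, at 24 h over both arms and between doses at 48 h, 0 to 0 between doses at 4 h, and 0 to 3 at 48 h after 18 mg/kg.

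The replicate block, with the replicate number as a term, gave 1 call in cortex at 4 h over both arms in place of 0, 0 between cortex doses at 4 h in place of 1, and 1 in the tissue test after 18 mg/kg in place of 3. Within a tissue the numbers do not pair the arrays: deviations of same-numbered arrays correlated from -0.707 to 0.61. Cortex and liver arrays of the same dose, time and number correlated from -0.102 to 0.204 (median 0.057, 24 pairs). The number of arrays limits all of these counts, and the share of all probe sets called is not given for the alternatives.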
